A study of Mus musculus with 12 samples.

Results

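The AP-1 family genes of mouse embryonic fibroblasts were followed by RNA-seq through heat and through loss of the ubiquitin ligase CHIP. The set was defined by name as the 10 rows of the gene table called Fos, Fosb, Fosl1, Fosl2, Jun, Junb, Jund, Atf3, Maff and Mafk, out of 54532 rows in all. Mouse embryonic fibroblasts (MEFs) are connective tissue cells grown from mouse embryos. The groups were heated CHIP-KO cells, heated wild-type cells, unheated CHIP-KO cells and unheated wild-type cells, with 3 libraries each and 12 in all. Heat meant 43 °C for 1 hour, and the labels do not say whether a recovery period followed. CHIP-KO cells carry the genotype label CHIP-KO, and wild-type cells the label WT. The labels call the cells a line, and do not tell how the knockout was made, the mouse strain, or whether a genotype is 1 line or several. They also leave unsaid whether replicate libraries were grown as separate cultures, so p-values measure the spread between these libraries, which may be technical.

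AP-1 is a dimer of basic leucine zipper (bZIP) proteins that binds short DNA elements and changes transcription. FOS proteins cannot pair with themselves and bind DNA with a JUN partner, whereas JUN proteins can also pair with each other. Several members are immediate early genes, which are transcribed within minutes of growth factors or stress without new protein synthesis, and heat is a known activator of the JNK and p38 kinases that act on JUN and ATF proteins. ATF3 is a stress-induced bZIP factor that often represses its targets. The small MAF proteins MAFF and MAFK lack an activation domain and pair mainly with NRF and BACH factors. The question was how each member responds to heat, and whether that response is the same in cells that lack CHIP.

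Levels are FPKM (fragments per kilobase of gene, scaled by the authors to sequencing depth), given as mean ± SD over 3 libraries or per library in the order of replicates 1, 2 and 3. Differences are of log2(FPKM + 1), a scale that understates the change of weakly expressed genes. Tests were made with limma, and each p was adjusted by the Benjamini-Hochberg method across the 13023 genes with at least 1 FPKM in at least 3 of 12 libraries. A gene was called at an adjusted p under 0.05. All 10 members passed this filter, but Fosb passed only through its 6 heated libraries, so its inclusion already required a difference with heat. The libraries held 15591924 to 26954112 fragments, recovered from the steps of the values, with most CHIP-KO libraries deeper than wild-type ones. Stub1, which encodes CHIP, stood at 1.08 ± 0.0885 FPKM in heated CHIP-KO cells against 55.4 ± 2.25 FPKM in heated wild-type cells, and at 0.971 ± 0.229 FPKM in unheated CHIP-KO cells against 61.7 ± 3.63 FPKM in unheated wild-type cells. Of 10 fibroblast markers, 9 reached 1 FPKM in CHIP-KO cells and 7 in wild-type cells, where Dcn, Lum and Thy1 were under 1 FPKM, with summed levels of 2922 to 3474 FPKM in CHIP-KO cells and 1459 to 2210 FPKM in wild-type cells. The 5 endothelial and 5 epithelial markers were all under 1 FPKM in every group. Each other list had at most 1 gene that reached 1 FPKM (Msln, Cd68 and Tubb3, and in heated wild-type cells Des), but the sums differed between groups. The 4 mesothelial markers summed to 31.1 to 38.1 FPKM in heated CHIP-KO, 5.40 to 6.05 in heated wild-type, 27.7 to 31.9 in unheated CHIP-KO and 29.8 to 30.5 FPKM in unheated wild-type cells. The 5 immune markers summed to 8.47 to 10.7 FPKM in heated CHIP-KO, 12.3 to 15.4 in heated wild-type, 3.91 to 4.33 in unheated CHIP-KO and 1.86 to 2.98 FPKM in unheated wild-type cells. The 5 neural and glial markers summed to 13.8 to 18.9 FPKM in CHIP-KO cells and 6.53 to 8.23 FPKM in wild-type cells. Their part in the results was not tested. In bulk RNA a change in the share of cells and a change in RNA per cell cannot be told apart. Both wild-type replicates 1 stood apart from the rest, with limma library weights of 0.192 unheated and 0.165 heated (the others 0.439 to 5.04), so results that rest on them are also given without them.

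Promoter sequences are shown for 4 members because these carry the main contrast in the data: Fos, Jun and Junb were higher in unheated CHIP-KO cells, and Atf3 had the largest heat response among the members without such a difference. Each line gives the 250 bases before the RefSeq transcription start (GRCm38.p6, 5′ to 3′ on the gene's strand), with motif matches in capitals.
Fos (chr12:85473640-85473889, plus strand): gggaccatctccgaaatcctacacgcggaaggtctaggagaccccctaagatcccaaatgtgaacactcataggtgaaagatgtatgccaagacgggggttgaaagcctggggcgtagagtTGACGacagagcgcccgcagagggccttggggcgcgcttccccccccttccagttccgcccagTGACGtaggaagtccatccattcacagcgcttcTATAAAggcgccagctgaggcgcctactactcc
Jun (chr4:95052223-95052472, minus strand): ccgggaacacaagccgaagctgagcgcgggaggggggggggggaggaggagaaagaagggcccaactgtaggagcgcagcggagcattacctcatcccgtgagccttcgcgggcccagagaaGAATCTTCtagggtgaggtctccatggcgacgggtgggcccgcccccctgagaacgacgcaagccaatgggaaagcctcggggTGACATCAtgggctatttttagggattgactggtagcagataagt
Junb (chr8:84978749-84978998, minus strand): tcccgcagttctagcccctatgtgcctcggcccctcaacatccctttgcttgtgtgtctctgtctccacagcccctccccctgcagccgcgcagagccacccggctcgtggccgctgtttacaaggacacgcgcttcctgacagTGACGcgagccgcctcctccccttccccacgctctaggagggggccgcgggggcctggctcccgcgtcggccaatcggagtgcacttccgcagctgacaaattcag
Atf3 (chr1:191183334-191183583, minus strand): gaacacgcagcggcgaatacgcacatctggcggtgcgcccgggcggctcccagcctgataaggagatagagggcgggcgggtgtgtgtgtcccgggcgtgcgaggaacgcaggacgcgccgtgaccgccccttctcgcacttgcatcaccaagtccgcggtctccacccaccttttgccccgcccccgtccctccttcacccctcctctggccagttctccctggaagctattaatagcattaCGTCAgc
The capitals mark the CRE core TGACG or its complement CGTCA (Fos, Junb and Atf3), the CRE variant TGACATCA and a GAANNTTC pair of heat shock elements (Jun), and the TATAAA box (Fos). The start used for Junb lies 30 bases outside the gene boundary of the deposited table and that for Atf3 34706 bases inside it, while those of Fos and Jun coincide with it. Motifs were searched on both strands, TATAAA on the gene's strand alone, in 32851 RefSeq promoter windows, and TGACG was added after the sequences had been seen. A window was found for 9 members, and not for Fosl1. TGACG was present in windows of Fos, Fosb, Junb, Atf3, Maff and Mafk, 6 members, and in 17.8% of all windows. The full CRE TGACGTCA, which contains TGACG, was found in 1 member, Maff, and in 1.55% of all windows. TGACATCA was found in Jun and in a second Maff window, and in 2.93% of all windows. The AP-1 site TGANTCA (6.75% of windows), the CArG box bound by SRF (1.47%) and each orientation of the triple heat shock element (0.466%) were in no member's window. These absences hold for the 250 bases searched, and sites further upstream were not looked for. The start used for Jund lies 1210 bases outside the gene boundary of the deposited table. That of Fosl2 lies 671 bases inside it, and those of Maff 0, 899 and 1781 bases inside it. Of the pairs of heat shock elements, GAANNTTC was in Fosl2 and Jun and in 6.69% of all windows, and TTCNNGAA in no member and in 7.17%. No motif searched was common to the windows of Fos, Jun and Junb.

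**Figure D1:**
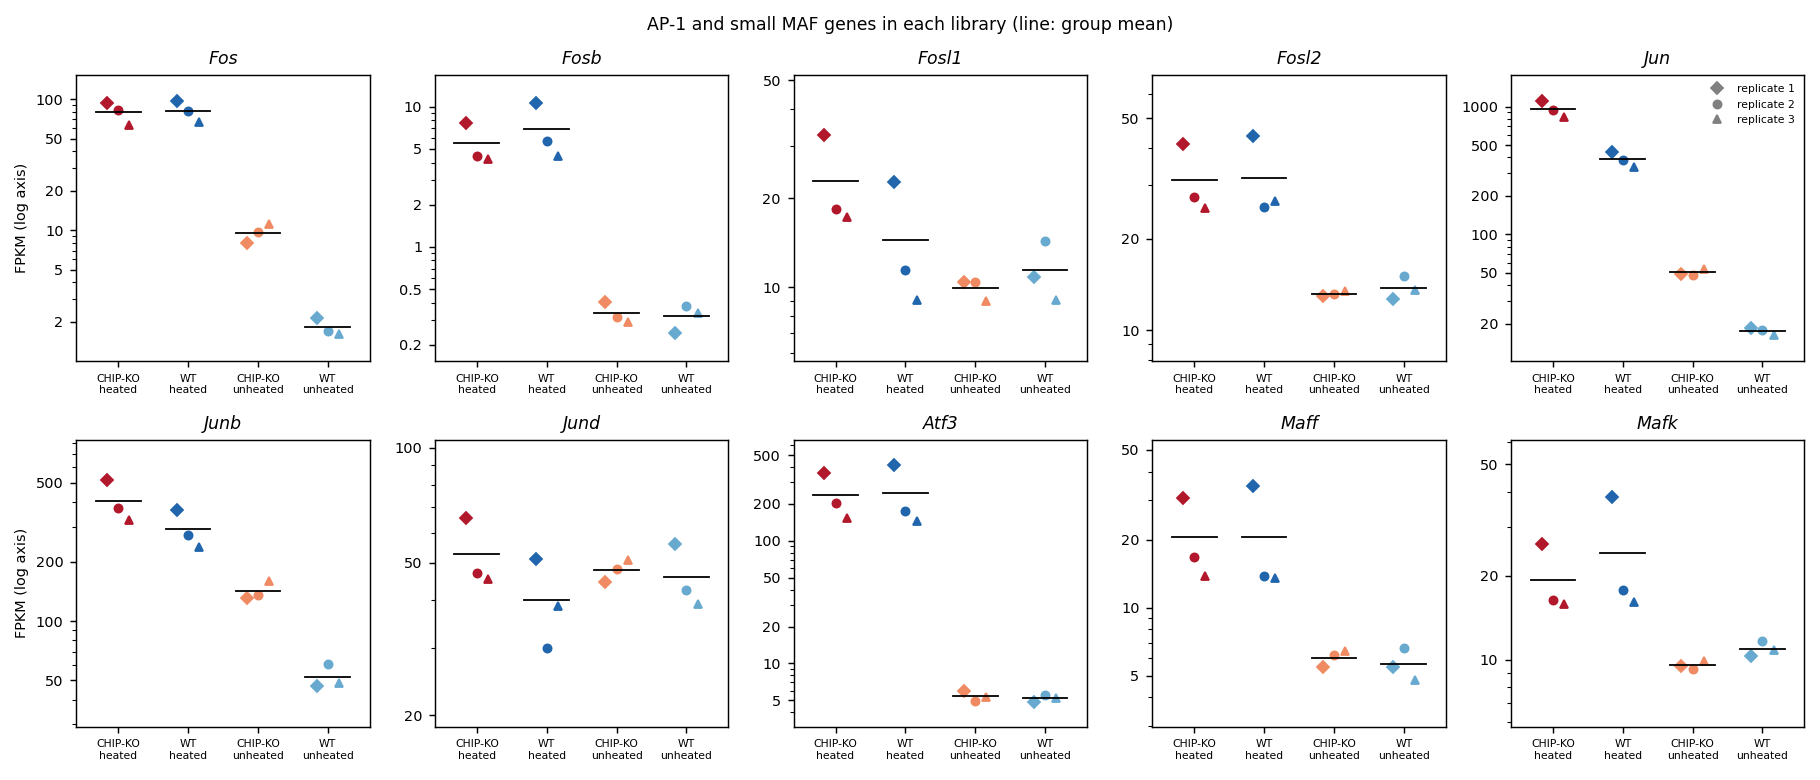
FPKM of each member (log axis) in every library, with groups on the horizontal axis, 1 symbol per replicate and a line at the group mean. Jun is separated in all 4 groups, Fos averages 9.57 FPKM in CHIP-KO against 1.82 FPKM in wild-type cells without heat and overlaps between genotypes with heat, and replicate 1 is the highest heated library of every member in both genotypes.

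Jun (ENSMUSG00000052684, chromosome 4, positions 95049034 to 95052222, minus strand), the main transactivating partner of FOS, was the most abundant member after heat and the only one whose 4 groups were all apart. It stood at 1114, 937 and 826 FPKM in heated CHIP-KO libraries and at 443, 384 and 335 FPKM in heated wild-type libraries. Without heat it stood at 49.3, 48.3 and 53.9 FPKM in CHIP-KO libraries and at 18.4, 17.7 and 16.3 FPKM in wild-type libraries. Every CHIP-KO library thus lay above every wild-type library of the same treatment. Heat raised Jun by 4.21 log2 units (95% interval 3.95 to 4.47) in CHIP-KO cells and by 4.39 (4.13 to 4.64) in wild-type cells, with limma adjusted p values of 3.51e-09 and 1.26e-09. CHIP-KO cells were higher by 1.31 log2 units after heat (limma adjusted p = 5.94e-06) and by 1.48 without heat (limma adjusted p = 1.68e-06). The heat responses of the genotypes differed by -0.17 log2 units (95% interval -0.54 to 0.19, limma adjusted p = 0.451), so a genotype difference of similar size was measured at both treatments.

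Junb (ENSMUSG00000052837, chromosome 8, positions 84974484 to 84978718, minus strand) encodes a JUN protein that activates more weakly and can oppose JUN. It was the most abundant member in unheated cells of either genotype, although its unheated wild-type range overlapped that of Jund. Junb stood at 516, 374 and 324 FPKM in heated CHIP-KO libraries and at 364, 272 and 236 FPKM in heated wild-type libraries. Unheated CHIP-KO libraries held 131, 135 and 159.9 FPKM, against 46.8, 60.7 and 48.6 FPKM in unheated wild-type libraries. Without heat the genotypes did not overlap, whereas with heat they did. Heat raised Junb by 1.48 log2 units in CHIP-KO cells and by 2.44 in wild-type cells (limma adjusted p = 0.000466 and 1.57e-06). The response was smaller in CHIP-KO cells by 0.96 log2 units (interaction -0.96, 95% interval -1.55 to -0.37, limma adjusted p = 0.0172), with an adjusted p of 0.0574 without both wild-type replicates 1. The CHIP-KO excess was 1.43 log2 units without heat (limma adjusted p = 9.33e-05) and 0.47 after heat (95% interval 0.05 to 0.89, limma adjusted p = 0.0669), and after heat it passed when heated wild-type replicate 1 (adjusted p = 0.0176) or heated CHIP-KO replicate 3 (adjusted p = 0.0327) was left out.

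Jund (ENSMUSG00000071076, chromosome 8, positions 70698949 to 70700616, plus strand) encodes the JUN protein that resting cells keep at a steady level. It was the one member that no comparison called. Its levels were 65.5, 47.0 and 45.4 FPKM in heated CHIP-KO libraries, 51.2, 29.9 and 38.7 FPKM in heated wild-type libraries, 44.7, 48.2 and 50.9 FPKM in unheated CHIP-KO libraries and 55.9, 42.5 and 39.0 FPKM in unheated wild-type libraries. The ranges of heated and unheated libraries overlapped in both genotypes. The change with heat was 0.11 log2 units in CHIP-KO cells (95% interval -0.32 to 0.55, limma adjusted p = 0.736) and -0.21 in wild-type cells (95% interval -0.64 to 0.22, limma adjusted p = 0.383). After heat the CHIP-KO level was 0.40 log2 units above wild type (limma adjusted p = 0.124), and this passed without heated wild-type replicate 1 (0.60, adjusted p = 0.0255).

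Fos (ENSMUSG00000021250, chromosome 12, positions 85473890 to 85477273, plus strand), the prototype immediate early gene, differed between genotypes without heat and not detectably after it. Heated CHIP-KO libraries held 94.2, 82.8 and 63.0 FPKM and heated wild-type libraries 96.3, 81.5 and 67.1 FPKM. Unheated CHIP-KO libraries held 7.92, 9.69 and 11.1 FPKM and unheated wild-type libraries 2.16, 1.69 and 1.60 FPKM, from 78 to 80 fragments in each wild-type library. The heated libraries of the genotypes covered nearly the same range, while every unheated CHIP-KO library was above every unheated wild-type library. The CHIP-KO level was 1.90 log2 units higher without heat (limma adjusted p = 4.04e-06) and -0.03 log2 units apart after heat (95% interval -0.41 to 0.34, limma adjusted p = 0.900). Heat raised Fos by 2.93 log2 units in CHIP-KO cells and by 4.86 in wild-type cells (limma adjusted p = 2.02e-06 and 7.40e-09), as ratios of group means 8.36-fold and 44.9-fold. The response differed by -1.93 log2 units (95% interval -2.46 to -1.41, limma adjusted p = 0.000124), and over 24 alternative settings this value ranged from -2.48 to -1.74 and stayed past the threshold.

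Fosb (ENSMUSG00000003545, chromosome 7, positions 19302696 to 19310051, minus strand), a late-peaking FOS gene, was the least abundant member in every group. It stood at 7.71, 4.44 and 4.27 FPKM in heated CHIP-KO libraries and 10.6, 5.68 and 4.44 FPKM in heated wild-type libraries. Unheated libraries held 0.404, 0.315 and 0.290 FPKM in CHIP-KO cells and 0.244, 0.377 and 0.339 FPKM in wild-type cells, from 24 to 63 fragments. Heated and unheated libraries were far apart and the genotypes overlapped at both treatments. The rise was 2.24 log2 units in CHIP-KO cells (limma adjusted p = 0.000249) and 2.51 in wild-type cells (limma adjusted p = 1.02e-05), or 16.3-fold and 21.6-fold as ratios of group means. Because Fosb passed the filter only through its heated libraries, these p values are not independent support for the rise. Unlike Fos, Fosb was not called between genotypes without heat, at 0.02 log2 units (95% interval -0.54 to 0.57, limma adjusted p = 0.967).

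Fosl2 (ENSMUSG00000029135, chromosome 5, positions 32135801 to 32157842, plus strand) and Fosl1 (ENSMUSG00000024912, chromosome 19, positions 5447703 to 5455945, plus strand) encode FRA-2 and FRA-1, FOS proteins without the strong activation domain of FOS. Fosl2 stood at 41.0, 27.4 and 25.3 FPKM in heated CHIP-KO libraries, 43.5, 25.5 and 26.6 FPKM in heated wild-type libraries, 13.0, 13.2 and 13.4 FPKM in unheated CHIP-KO libraries and 12.7, 15.1 and 13.6 FPKM in unheated wild-type libraries. It rose by 1.15 log2 units in CHIP-KO cells and 1.11 in wild-type cells (limma adjusted p = 0.00276 and 0.000655), and the difference of these responses was 0.04 (95% interval -0.59 to 0.66). Fosl1 stood at 32.6, 18.4 and 17.2 FPKM in heated CHIP-KO libraries, 22.7, 11.4 and 9.03 FPKM in heated wild-type libraries, 10.4, 10.4 and 9.01 FPKM in unheated CHIP-KO libraries and 10.8, 14.4 and 9.08 FPKM in unheated wild-type libraries. All heated CHIP-KO libraries were above the unheated ones, whereas in wild-type cells only heated replicate 1 was. Heat changed Fosl1 by 1.06 log2 units in CHIP-KO cells (95% interval 0.39 to 1.74, limma adjusted p = 0.0324) and by 0.23 in wild-type cells (95% interval -0.44 to 0.91, limma adjusted p = 0.542). The CHIP-KO call was lost when any of unheated replicates 1, 2 or 3 or heated replicates 1 or 2 of CHIP-KO was left out (adjusted p 0.0521 to 0.108), and without a filter or after scaling every library to the same sum (adjusted p = 0.0780 and 0.0587). The difference between the responses was 0.83 log2 units (limma adjusted p = 0.161), and without heated wild-type replicate 1 it was 1.19 (adjusted p = 0.0198).

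Atf3 (ENSMUSG00000026628, chromosome 1, positions 191170296 to 191218039, minus strand) had the largest heat response of the family in both genotypes, the fifth largest of all genes tested in each. Heated CHIP-KO libraries held 357, 202 and 153 FPKM and heated wild-type libraries 416, 175 and 145 FPKM. Unheated CHIP-KO libraries held 5.94, 4.95 and 5.28 FPKM and unheated wild-type libraries 4.89, 5.55 and 5.23 FPKM. The genotypes overlapped at both treatments. Atf3 rose by 5.13 log2 units in CHIP-KO cells and 5.15 in wild-type cells (limma adjusted p = 8.92e-06 and 7.58e-07), and these responses differed by -0.01 (95% interval -1.14 to 1.11), an interval wide enough to hold a difference of more than 2-fold either way.

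The small MAF genes rose less. Maff (ENSMUSG00000042622, chromosome 15, positions 79346621 to 79359076, plus strand) stood at 30.7, 16.8 and 13.8 FPKM in heated CHIP-KO libraries, 34.6, 13.8 and 13.5 FPKM in heated wild-type libraries, 5.44, 6.17 and 6.41 FPKM in unheated CHIP-KO libraries and 5.43, 6.64 and 4.76 FPKM in unheated wild-type libraries. Its change was 1.54 log2 units in CHIP-KO cells (limma adjusted p = 0.00942) and 1.58 in wild-type cells (limma adjusted p = 0.00198). Heated and unheated libraries did not overlap in either genotype, and the genotypes did at both treatments. Mafk (ENSMUSG00000018143, chromosome 5, positions 139791513 to 139802653, plus strand) stood at 25.9, 16.4 and 15.8 FPKM in heated CHIP-KO libraries, 38.3, 17.8 and 16.1 FPKM in heated wild-type libraries, 9.52, 9.25 and 9.94 FPKM in unheated CHIP-KO libraries and 10.3, 11.7 and 10.8 FPKM in unheated wild-type libraries. It rose by 0.91 log2 units in CHIP-KO cells (limma adjusted p = 0.0356) and 0.97 in wild-type cells (limma adjusted p = 0.00949). The CHIP-KO call for Mafk was lost without any of CHIP-KO unheated replicates 1, 2 or 3 or heated replicates 1 or 2 (adjusted p 0.0575 to 0.119), without a filter (0.0841) and with an equal sum per library (0.0841). Each unheated CHIP-KO library was slightly below each unheated wild-type library, at -0.18 log2 units (limma adjusted p = 0.630).

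Counted over the set, heat raised 9 of 10 members in CHIP-KO cells, all but Jund, against 8.65% of all genes tested called higher and 11.4% called lower. In wild-type cells 8 of 10 rose, all but Jund and Fosl1, against 28.1% of all genes called higher and 30.5% called lower. No member was called lower with heat in either genotype. The same 9 and 8 members had heated libraries entirely above unheated ones, which 22.8% of all genes showed in CHIP-KO cells and 29.3% in wild-type cells. No member had heated libraries entirely below unheated ones, which 25.9% of genes showed in CHIP-KO cells and 31.1% in wild-type cells. The median change of the 10 members was 1.51 log2 units in CHIP-KO cells and 2.01 in wild-type cells, against -0.0018 and -0.016 over all genes. These counts and medians include Fosb, which passed the filter only through its heated libraries. The members were also chosen with earlier results of these data known. Scaling to an equal sum per library moved the median of all genes to -0.29 in CHIP-KO and -0.21 in wild-type cells, with 7 and 8 members called higher.

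Between genotypes fewer members were called. Without heat 3 of 10 members were called higher in CHIP-KO cells (Fos, Jun and Junb) and 0 lower, against 23.9% and 24.5% of all genes, with a median of 0.06 log2 units over members and -0.01 over all genes. These 3 members had CHIP-KO libraries entirely above wild-type ones, against 30.1% of all genes, and 1, Mafk, entirely below, against 31.1%. After heat 1 of 10 was called higher (Jun) and 0 lower, against 23.3% and 19.1%, with 2 at an unadjusted p under 0.05. Jun was also the member with heated CHIP-KO libraries entirely above wild-type ones, against 27.7% of genes, and 0 were entirely below, against 22.7%. This count was 4 without heated wild-type replicate 1 or without both wild-type replicates 1 (Jun, Junb, Fosl1 and Jund) and 2 without heated CHIP-KO replicate 3. The interaction called 2 of 10 members, Fos and Junb, both with a smaller response in CHIP-KO cells, against 17.3% of all genes called in that direction and 17.9% in the other. The interaction shares its samples with the other contrasts, so that the unheated excess and the smaller response of Fos and Junb are not separate observations.

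**Figure D2:**
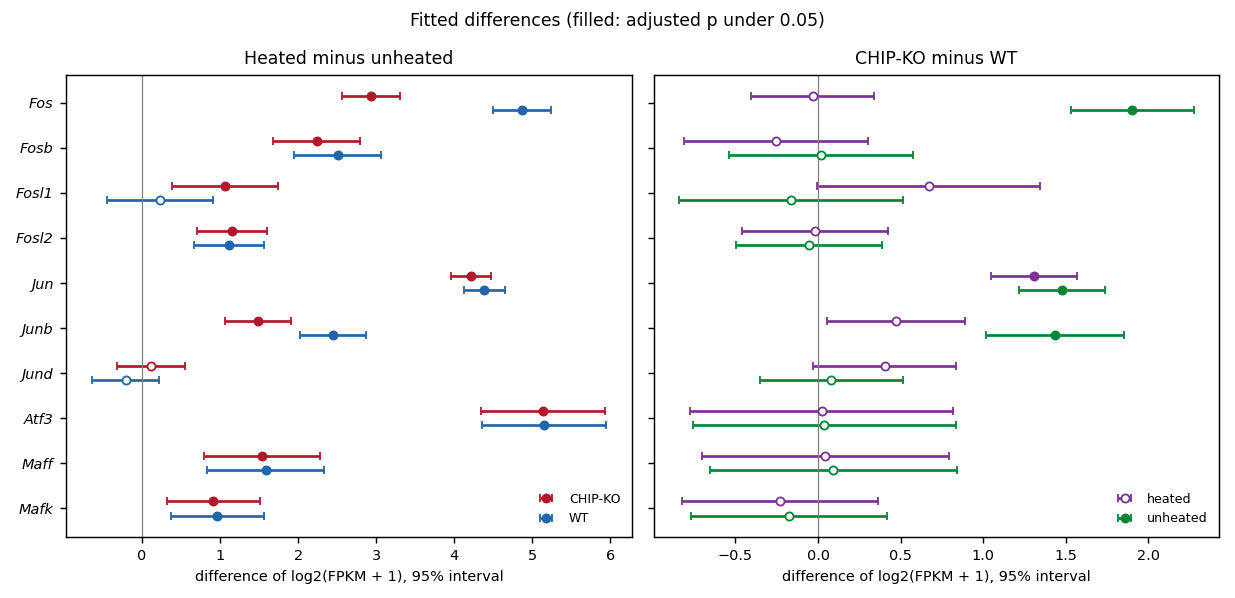
Fitted differences of log2(FPKM + 1) per member with 95% intervals, for heated minus unheated cells (left, by genotype) and CHIP-KO minus wild type (right, by treatment), with filled symbols where the adjusted p was under 0.05. The genotype intervals of Fos and Junb lie apart in the left panel, and Jun is the member to the right of 0 at both treatments with filled symbols in the right panel.

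The order of levels changed with heat. Without heat, Junb, Jund and Jun were the most abundant of the 10 in wild-type cells at 52.0, 45.8 and 17.5 FPKM, and Junb, Jun and Jund in CHIP-KO cells at 142, 50.5 and 47.9 FPKM. After heat, Jun, Junb and Atf3 led in both genotypes, at 959, 405 and 237 FPKM in CHIP-KO cells and 387, 290.5 and 245 FPKM in wild-type cells. Jun and Junb did not overlap in heated CHIP-KO cells but did in heated wild-type cells, and Junb and Atf3 overlapped in both. Fosl2, Fosl1, Maff and Mafk stood at 14.4 to 31.9 FPKM in heated cells. Their order was Fosl2, Fosl1, Maff and Mafk in CHIP-KO cells and Fosl2, Mafk, Maff and Fosl1 in wild-type cells, and neighbours within each order overlapped.

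FPKM is scaled to gene length, so levels can be summed over a family. The 4 FOS genes summed to 139 ± 33.4 FPKM in heated CHIP-KO cells and 135 ± 34.2 FPKM in heated wild-type cells, and to 33.0 ± 1.17 FPKM in unheated CHIP-KO cells and 27.3 ± 3.70 FPKM in unheated wild-type cells. The 3 JUN genes summed to 1416 ± 256 FPKM in heated CHIP-KO cells and 717 ± 127 FPKM in heated wild-type cells, and to 240.3 ± 21.4 FPKM in unheated CHIP-KO cells and 115 ± 9.88 FPKM in unheated wild-type cells. FOS sums overlapped between heated genotypes. Without heat they were narrowly apart, at 31.7 to 33.9 FPKM in CHIP-KO libraries and 24.6 to 31.5 FPKM in wild-type libraries. JUN sums did not overlap between genotypes at either treatment. The JUN sum over the FOS sum was 10.2 ± 0.615 in heated CHIP-KO cells, 5.39 ± 0.384 in heated wild-type cells, 7.27 ± 0.490 in unheated CHIP-KO cells and 4.25 ± 0.424 in unheated wild-type cells, with no overlap among the 4 groups. Fos itself made up 57.8 ± 4.30% of the FOS sum in heated CHIP-KO cells and 61.3 ± 5.16% in heated wild-type cells, against 28.9 ± 3.90% in unheated CHIP-KO cells and 6.74 ± 1.50% in unheated wild-type cells. Fosl1 and Fosl2 made up most of the unheated FOS sum, at 30.2 ± 3.21% and 39.9 ± 0.825% in CHIP-KO cells and 41.4 ± 4.34% and 50.7 ± 3.96% in wild-type cells. Jund fell as a share of the JUN sum to 3.71 ± 0.214% in heated CHIP-KO cells, against 20.0 ± 0.815% unheated, and to 5.56 ± 1.06% in heated wild-type cells, against 39.6 ± 5.78% unheated, with its own level not called different.

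**Figure D3:**
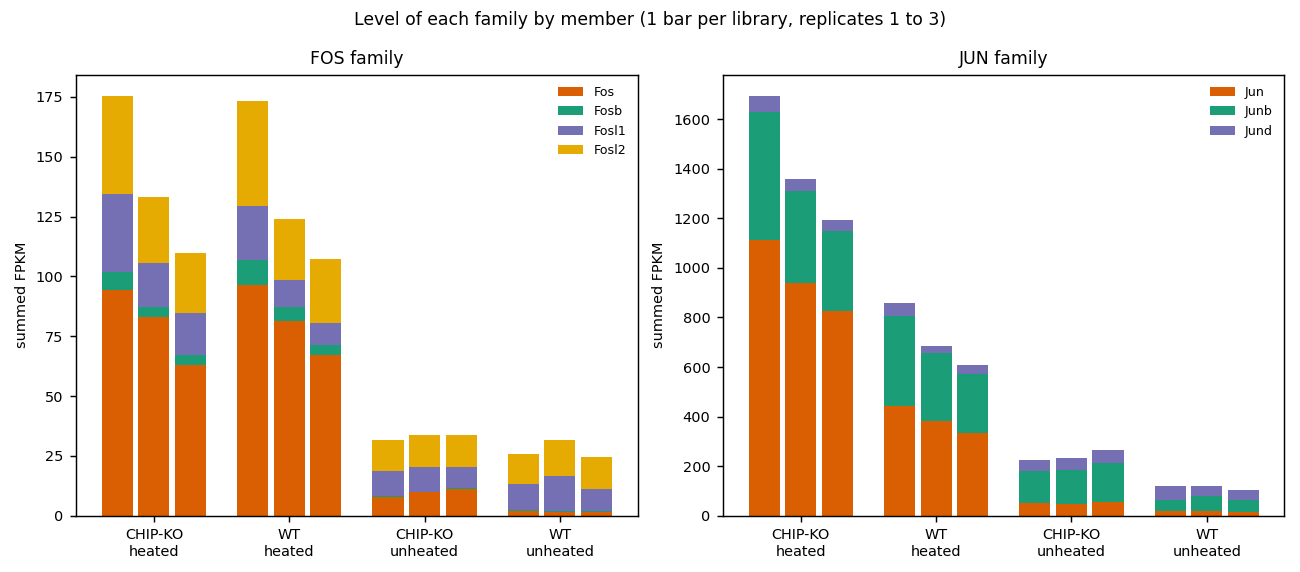
Summed FPKM of the FOS family (left) and the JUN family (right), 1 stacked bar per library with members in colour, for the 4 groups. Heated FOS bars reach 107 to 176 FPKM in both genotypes, whereas heated JUN bars reach 1195 to 1696 FPKM in CHIP-KO cells and 609 to 858 FPKM in wild-type cells.

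Replicate 1 was the highest heated library for 10 of 10 members in CHIP-KO cells and for 10 of 10 in wild-type cells. Over all genes tested, replicate 1 was highest in 40.5% of genes in heated CHIP-KO cells and 37.5% in heated wild-type cells. Among genes outside the set that were called at least 2-fold higher with heat, it was highest in 55.3% of 318 in CHIP-KO cells and 61.0% of 847 in wild-type cells. The median ratio of replicate 1 to the mean of the other replicates was 1.58 over the members in heated CHIP-KO cells and 1.88 in heated wild-type cells, against 1.00 and 0.973 over all genes. Relative to its mean, the heated SD was widest in Atf3 and Maff and narrowest in Jun and Fos in both genotypes. Unheated replicates 1 showed no such pattern, being highest for 3 of 10 members in either genotype. What set the heated replicates 1 apart was not tested. Without both heated replicates 1, a choice made after the data were seen, heat raised 9 members in CHIP-KO cells and 8 in wild-type cells, and Jund was called lower with heat in wild-type cells at -0.40 log2 units (limma adjusted p = 0.0453).

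Across the 12 libraries the members varied together to unequal degrees, given here as descriptions over libraries that share group means and library effects. Pearson r of the log values was 0.994 between Fosb and Atf3, 0.990 between Fosl2 and Maff, and 0.972 between Fos and Jun. Jund had r of -0.0011 with Fos and 0.0071 with Atf3. Among 10758 protein-coding genes searched, the profile most like Atf3 was that of Hspb1 (r = 0.999), a small heat shock protein gene, followed by Arc (0.994) and Fosb. Fosb was closest to Bag3 (0.996), an HSP70 co-chaperone gene, followed by Atf3 and Arc (0.993). Jun was closest to Socs3 (0.994), Trib1 (0.988) and Dnajb1 (0.986), Fos to Arrdc3 (0.994), Egr1 (0.991) and Ppp1r15a (0.989), and Junb to Sox9 (0.991), Bhlhe40 (0.991) and Egr2 (0.988). Fosl2 was closest to Amotl2 (0.991), Maff to Fosl2, Mafk to Zfand2a (0.988), Fosl1 to Efnb2 (0.962) and Jund to Qk (0.943). Egr1, an immediate early gene outside the family, had an interaction of -1.96 log2 units (limma adjusted p = 8.62e-06), which is not independent of its likeness to Fos.

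Gene structure and 3′ UTR content were read from GENCODE M21 transcripts as features the set was not chosen on. Jun, Junb and Jund each have 1 exon, the 4 FOS genes and Atf3 have 4, and Maff and Mafk have 3 in the transcripts with the longest 3′ UTR. The AU-rich pentamer ATTTA, an element of many short-lived mRNAs, occurred 4 times in the 815-base 3′ UTR of Fos, or 4.91 per kilobase, which exceeded 93.9% of 10619 tested genes with a 3′ UTR of at least 100 bases. Junb had 4.12 per kilobase, Maff 3.28, Jun 3.24 and Fosb 0.434, against a median of 1.39 over all these genes, and 9 of 10 members were above that median. The longer element TTATTTATT was in 3 members, Fos, Fosl2 and Maff, and in 8.47% of all these genes. Jund had 1.88 ATTTA per kilobase, and Fosb was the member below the median. A relation between these densities and the heat responses was not tested.

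Partners and neighbours of the pathway were taken from lists that do not include the members. The counts of each list with heat are to be read against 8.65% of all genes called higher and 11.4% called lower in CHIP-KO cells, and 28.1% higher and 30.5% lower in wild-type cells. Of 8 tested other AP-1 and MAF genes, 0 rose and 2 fell with heat in CHIP-KO cells, and 4 rose and 1 fell in wild-type cells. Jdp2, whose protein represses AP-1 sites, fell by 0.38 log2 units in CHIP-KO cells and by 0.90 in wild-type cells (limma adjusted p = 0.00204 and 7.60e-07). Among 5 tested CNC and BACH genes, which encode small MAF partners, 0 rose and 2 fell with heat in CHIP-KO cells and 2 rose and 2 fell in wild-type cells. Nfe2l1 and Nfe2l2 fell in both genotypes, Nfe2l2 by 0.45 log2 units in CHIP-KO cells and by 0.18 in wild-type cells (limma adjusted p = 0.000425 and 0.0178). Nfe2l3 and Bach1 rose in wild-type cells, by 0.92 and 0.42 log2 units (limma adjusted p = 0.000259 and 0.00842). All 5 were called higher in unheated CHIP-KO cells, against 23.9% of all genes.

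Other bZIP genes included both rising and falling ones. Of 11 tested partners of ATF3 and JUN, 4 rose and 1 fell with heat in CHIP-KO cells and 5 rose and 2 fell in wild-type cells (all genes 8.65% and 11.4% in CHIP-KO, 28.1% and 30.5% in wild-type cells), with medians of 0.02 and 0.19 log2 units. Cebpb rose by 1.38 log2 units in CHIP-KO cells and 1.71 in wild-type cells (limma adjusted p = 0.0152 and 0.00117). Atf5 fell by 0.46 log2 units in CHIP-KO cells and by 1.44 in wild-type cells (limma adjusted p = 0.00216 and 1.13e-07). Of 19 tested kinases and factors that act upstream of AP-1, 1 rose and 3 fell in CHIP-KO cells, against 8.65% and 11.4% of all genes. In wild-type cells 3 of these 19 rose and 7 fell, against 28.1% and 30.5% of all genes. Between heated genotypes 4 of these 19 were called higher and 3 lower in CHIP-KO cells, against 23.3% and 19.1% of all genes. Among the higher, Map2k1, which encodes the ERK kinase MEK1, stood at 27.8 ± 0.637 FPKM in heated CHIP-KO cells against 17.3 ± 0.738 FPKM in heated wild-type cells. Among the lower, Mapk3 stood at 97.8 ± 1.27 FPKM in heated CHIP-KO cells against 122 ± 12.6 FPKM in heated wild-type cells (limma adjusted p = 0.00550). Without heat Mapk3 was called higher in CHIP-KO cells (limma adjusted p = 0.000804). Its unheated levels were 99.97 ± 3.49 FPKM in CHIP-KO cells and 75.2 ± 4.35 FPKM in wild-type cells. Among 12 ligases and phosphatases that act on AP-1 or its kinases, Stub1 included, 6 rose in CHIP-KO cells and 5 in wild-type cells, against 8.65% and 28.1% of all genes, and 0 fell. The MAPK phosphatase gene Dusp1 led, at 3.64 and 3.05 log2 units (limma adjusted p = 2.58e-05 and 7.64e-06).

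Of 21 tested genes known as AP-1 targets, 8 rose and 0 fell with heat in CHIP-KO cells, against 8 that rose and 8 that fell in wild-type cells, with medians of 0.22 and 0.12 log2 units. Over all genes 8.65% rose and 11.4% fell in CHIP-KO cells and 28.1% rose and 30.5% fell in wild-type cells, so the wild-type counts were close to the background. Ptgs2, which encodes cyclooxygenase-2, rose by 1.63 log2 units in CHIP-KO cells and 2.61 in wild-type cells (limma adjusted p = 0.000916 and 4.50e-06). Hbegf, a growth factor gene, stood at 54.6 ± 21.2 FPKM in heated CHIP-KO cells against 20.2 ± 8.32 FPKM in heated wild-type cells, and Plau, the urokinase gene, at 80.8 ± 28.3 FPKM in heated CHIP-KO cells against 26.6 ± 11.7 FPKM in heated wild-type cells, both called higher in CHIP-KO cells (limma adjusted p = 0.00152 and 0.000636). The matrix protease gene Mmp3 went the other way, at 0.293 ± 0.0917 FPKM in heated CHIP-KO cells and 4.71 ± 0.291 FPKM in heated wild-type cells (limma adjusted p = 4.43e-08). Its unheated levels were 0.206 ± 0.135 FPKM in CHIP-KO cells and 0.106 ± 0.0501 FPKM in wild-type cells. Mmp3 thus passed the filter only through the heated wild-type group, so this p value is not independent support. The counts of targets include Mmp3. Spp1 was higher in unheated CHIP-KO than in unheated wild-type cells by 2.15 log2 units (limma adjusted p = 8.59e-10). Ccnd1, the cyclin D1 gene, was lower in unheated CHIP-KO cells by 1.97 log2 units (limma adjusted p = 1.68e-08). Of 21 targets, 11 were higher and 4 lower in heated CHIP-KO cells than in heated wild-type cells, against 23.3% and 19.1% of all genes. Without heat 10 were higher and 7 lower in CHIP-KO cells, against 23.9% and 24.5%.

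Of 15 tested immediate early genes outside the family, 10 rose in CHIP-KO cells and 14 in wild-type cells, against 8.65% and 28.1% of all genes, with medians of 1.07 and 2.01 log2 units. Without heat 9 of 15 were called higher in CHIP-KO cells and 0 lower, against 23.9% and 24.5% of all genes, among them Egr1 (2.39 log2 units), Egr3 (2.30) and Egr2 (1.88), all with limma adjusted p of 0.000189 or less. The interaction called 7 of 15 lower and 0 higher, against 17.3% and 17.9% of all genes. In Egr1, as in Fos and Junb, a higher unheated CHIP-KO level came with a smaller fitted heat response. The interaction subtracts the unheated genotype difference, so these are not separate observations. Jun had an unheated CHIP-KO excess of 1.48 log2 units without a called interaction (-0.17, limma adjusted p = 0.451).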

How the data were processed

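RNA from mouse embryonic fibroblasts was extracted and sequenced after polyA capture, per the labels' protocols, and HISAT2 is the tool that the submitters' processing notes name. No source used here states the aligner version, read counter or annotation. The authors deposited FPKM values per gene for 12 libraries in 4 groups of 3. Multiplied by gene length, 100% of values were whole multiples of the value of 1 fragment (tolerance 0.01), which gave depths of 15591924 to 26954112 fragments.

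Values were analysed as log2(FPKM + 1) in limma 3.58.1 (R 4.3.3) with a mean-variance trend and 4 group means, for genes with at least 1 FPKM in at least 3 libraries, with Benjamini-Hochberg adjustment over all 13023 genes and a threshold of 0.05. The procedure was tested on simulated data. Groups came from the genotype and treatment labels. Up to 3 genes per list and direction were named, those with the largest called change and a mean of at least 2 FPKM in the higher group, of which the text gives a part. The members and lists were chosen with earlier results of these data known. Gene coordinates are those of the deposited table; 9 of 10 members had the same start and end in GENCODE M21. Promoter sequences are from RefSeq (GRCm38.p6).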

Additional observations from a re-analysis of the deposited data

Results flagged for a closer look

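Fos was flagged because its heat response differed between genotypes by an interaction test, at -1.93 log2 units for CHIP-KO minus wild type (limma adjusted p = 0.000124). Junb was flagged for the same reason, at -0.96 log2 units (limma adjusted p = 0.0172).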

How the results depend on the processing

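No member reversed a called direction under any alternative. The number of members called between genotypes after heat, 1 as reported, was 4 with limma library weights, 2 with the replicate block, 4 without both wild-type replicates 1 and 3 without both heated replicates 1 (added after seeing the data), and ranged from 1 to 4 when single libraries were left out. Same-numbered libraries did not correlate in every pair (0.335, 0.0207 and 0.231 between heated genotypes), so the numbers were not taken to pair libraries. The highest correlation between unequal numbers of the heated genotypes was 0.130, which numbers 1 and 3 exceeded. Whether heated libraries of the same number share a batch was not tested. The replicate block added Fosl1 after heat (limma adjusted p = 0.0455) and left the other counts of members as they were.

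Scaling every library to an equal sum changed the split of all genes into higher and lower calls to 567 and 8158 with heat in CHIP-KO cells (1126 and 1481 as reported), 2388 and 6168 with heat in wild-type cells (3664 and 3976), 2347 and 3044 between heated genotypes (3033 and 2492) and 1765 and 2861 for the interaction (2328 and 2253). With voom on the recovered fragments the split was 905 and 3019 with heat in CHIP-KO cells and 2448 and 3153 between heated genotypes. Over all alternatives, 1578 to 8725 genes were called with heat in CHIP-KO cells, 5087 to 9252 with heat in wild-type cells, 3762 to 8590 between heated genotypes and 3418 to 7403 for the interaction. The cause was not tested. Mafk was called lower in unheated CHIP-KO cells when only the groups compared were fitted (limma adjusted p = 0.0460). Unheated Fosb rests on 24 to 63 fragments per library, which limits its genotype comparison.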
